A study of Mus musculus with 12 samples.

Results

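The ac4C peaks assigned to long noncoding RNAs were taken from the authors' deposited table of peaks in mouse ID8 cells with and without cisplatin. They are all rows whose host gene has the biotype lincRNA, antisense_RNA, processed_transcript, sense_intronic, sense_overlapping, bidirectional_promoter_lncRNA or TEC. Of 19049 peaks in the table, 859 met this rule, in 619 genes, and 17751 were assigned to protein-coding genes. The rule used the biotype and no measured difference. Intergenic lincRNAs held 266 of the peaks, antisense RNAs 218, TEC genes 168, processed transcripts 159, sense intronic RNAs 23, bidirectional promoter lncRNAs 22 and sense overlapping RNAs 3.

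ID8 is an established mouse ovarian cancer cell line. The 12 libraries fall into 4 groups of 3: control input, control IP, cisplatin input and cisplatin IP, all from ID8. Input is fragmented RNA depleted of ribosomal RNA, and IP is the part of it precipitated with an antibody against ac4C. The study asked how ac4C on RNA differs under cisplatin, a platinum drug that crosslinks DNA. The labels give no cisplatin dose or time and do not say whether replicates came from separate cultures. The p-values computed here for input RNA therefore measure only the spread between these libraries. What spread the authors' p-values of the peaks measure is not stated. Peaks come from 1 comparison of the treatments and carry no value per library, whereas the 6 input libraries have a level (FPKM, fragments scaled to gene length and library size) for each gene.

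N4-acetylcytidine, ac4C, is an acetyl mark on cytidine that the enzyme NAT10 writes. It is well established in ribosomal and transfer RNA, and antibody-based maps also place it in messenger and noncoding RNAs. Long noncoding RNAs act without coding for a protein: some build nuclear bodies or silence chromosomes, others carry small nucleolar RNAs (snoRNAs, guides for chemical marks on ribosomal RNA) or miRNAs in their introns, and many are transcribed from the strand opposite a protein-coding gene.

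The table gives peaks by position only. Sequence was at hand where a peak reached the RefSeq start window of its host. The window runs from 250 bases before to 50 bases after a start given for the gene on GRCm38.p6, the assembly behind mm10. The search took in only peaks whose host has a RefSeq start window, and it did not cover every chromosome. Its count can therefore be too low for the full set of 859 peaks. Among the peaks searched, 13 in 11 hosts reached the window. Of these, 7 passed the authors' adjusted p of 0.05 for the difference between treatments. The stretches below are shown because they hold the start on which the window of a noncoding host is set, and the first bases of such a peak. Peak bases are in capitals, 5′ to 3′ on the gene's strand. The stretches leave out Ifi30, which RefSeq calls protein-coding, and Gm26885, whose peak lies before the stretch. For Gas5 the start of the window lies inside the gene's RefSeq span, which begins at chr1:161034601.
Malat1, chr19:5802623-5802742, minus strand: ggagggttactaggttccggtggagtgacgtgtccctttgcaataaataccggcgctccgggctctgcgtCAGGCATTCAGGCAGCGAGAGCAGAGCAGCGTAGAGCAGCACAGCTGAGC
Gas5, chr1:161035096-161035215, plus strand: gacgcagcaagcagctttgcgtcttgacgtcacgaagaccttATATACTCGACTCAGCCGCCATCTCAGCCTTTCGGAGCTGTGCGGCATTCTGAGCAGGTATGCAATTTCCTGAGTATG
Snhg12, chr4:132308608-132308727, plus strand: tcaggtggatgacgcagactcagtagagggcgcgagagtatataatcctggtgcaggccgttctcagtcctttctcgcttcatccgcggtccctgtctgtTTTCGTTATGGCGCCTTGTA
2410006H16Rik, chr11:62602807-62602926, plus strand: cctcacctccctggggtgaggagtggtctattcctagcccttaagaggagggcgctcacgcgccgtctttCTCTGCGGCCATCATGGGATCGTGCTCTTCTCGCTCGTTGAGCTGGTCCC
The Malat1 peak covers the 50 bases after the start and has a deposited log2 difference of -0.21, while the Gas5 peak covers 78 bases of the stretch and has a difference of 2.27. The Snhg12 peak begins 20 bases before the end of its stretch, with a difference of 4.51. The peak of 2410006H16Rik, an uncharacterised processed transcript, has a difference of -0.96. A motif CNNCNNCNN, cytidines spaced by a pair of any bases, as linked to ac4C in earlier maps, was found 1 time in the Malat1 stretch, 2 times in that of Gas5, 2 times in that of Snhg12 and 4 times in that of 2410006H16Rik on the gene's strand, overlapping matches included. The same length of window of 32851 RefSeq genes held it in 78% on the gene's strand and in 81.9% on the other, with a median of 2 matches on the gene's strand.

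A pair of mature miRNAs lay whole inside a lncRNA peak, at chr9:108568726-108568876 on the plus strand in 4833445I07Rik. Their sequences are shown because the peak covers both arms of 1 hairpin; seeds (bases 2 to 8) are in capitals.
mmu-miR-425-5p: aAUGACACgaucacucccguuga
mmu-miR-425-3p: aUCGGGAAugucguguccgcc
The seeds differ. The peak has a fold enrichment of 7.05 and a difference of 1.00, and it did not pass the threshold. A peak of Mir22hg, the host transcript of miR-22, covers 9 of the 22 bases of mmu-miR-22-5p and did not pass either.

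Fragments recovered from the FPKM steps summed to 20134902 to 29687163 per input library over the listed genes. They are the smallest whole numbers that fit each gene, so the true counts can be higher. Of 12 mesothelial and epithelial markers 11 were listed, and their summed level was 2080 to 2120 FPKM in control and 2930 to 3270 FPKM in cisplatin libraries. The sum consists mainly of Krt8, Krt18 and Krt19, and the markers did not move together. Of the 9 that passed the filter 4 were higher (Krt8, Krt18, Krt19 and Msln) and 4 lower (Wt1, Upk3b, Gata4 and Muc16). Over all tested genes 81.3% were called. Epcam was not listed, Krt7 stayed at or under 0.266 FPKM in each library, and Wt1 was at 44.3 to 46.3 FPKM in control and 11.7 to 12.8 FPKM in cisplatin libraries. Of 12 markers of immune, endothelial, fibroblast or muscle cells only 4 were listed (Pdgfra, Pdgfrb, Acta2 and Col1a1), with sums of 10.9 to 11.7 FPKM in control and 7.83 to 8.12 FPKM in cisplatin libraries. The defining markers Ptprc, Cd3e, Adgre1, Itgam, Csf1r, Pecam1 and Cdh5 were not listed.

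Of the 859 lncRNA peaks, 208 passed the authors' adjusted p of 0.05 for a difference between treatments, 149 with a positive and 59 with a negative log2 difference. That is 24.2% of lncRNA peaks, against 46.2% of all peaks in the table; 17.3% against 36.5% were positive and 6.87% against 9.62% negative. The columns do not state the direction of the difference, so the sign is given here as deposited. Fold enrichment, difference and p of each peak are the authors' own values, taken from their deposited table throughout. Fold enrichment was not lower: the median fold of IP over input was 8.23 in lncRNA peaks, with a middle spread of 5.0 to 12.9, and 7.05 over all peaks. The median difference was 1.00 in lncRNA peaks and 1.58 over all peaks. Widths were alike, with a median of 179 exonic bases against 181, and 83.2% of lncRNA peaks lay in a single block of sequence, against 56% of all peaks.

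**Figure D1:**
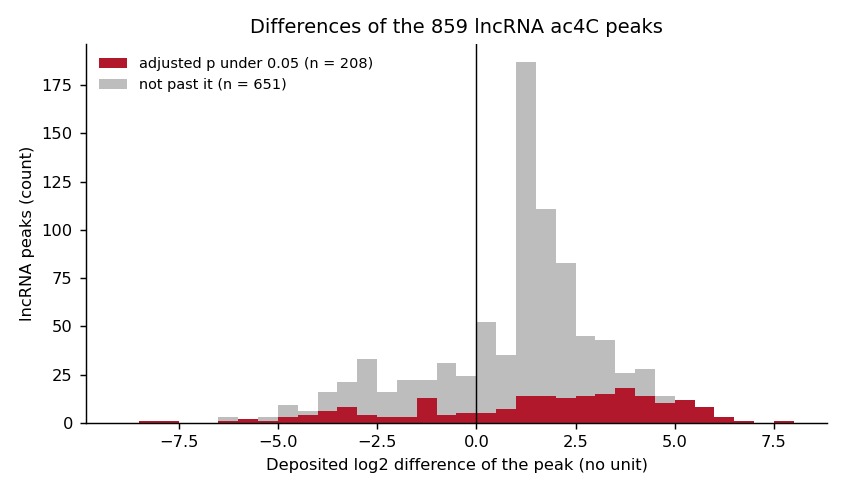
Histogram of the deposited log2 difference of the 859 lncRNA peaks (x axis, bins of 0.5; y axis, number of peaks), with peaks past the authors' adjusted p of 0.05 in red and the others in grey. The 651 grey peaks have their highest bars from 1.00 to 2.00, while the 208 red ones spread from -8.37 to 7.58.

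Strong peaks were called far more often than weak ones. The authors' log10 p of the peak itself had a median of -3.80 in lncRNA peaks and -6.79 over all peaks. Weak peaks, with a log10 p above -3, were 40.6% of lncRNA peaks and 21.4% of all; only 3 of the 349 weak lncRNA peaks were called, or 0.86%, against 5.56% of weak peaks in the whole table. Strong peaks, at -10 or below, were 22.7% of lncRNA peaks and 38.2% of all. Of the 195 strong lncRNA peaks 136 were called, or 69.7%, against 78.1% of strong peaks in all. In the middle class 21.9% of lncRNA peaks and 37.5% of all were called.

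**Figure D2:**
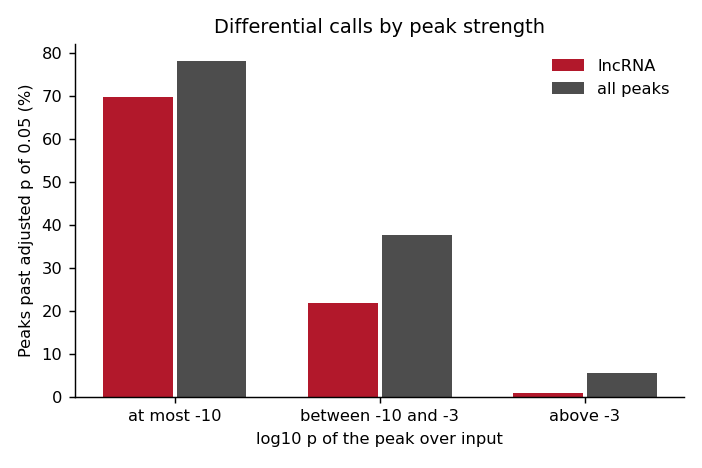
Percentage of peaks past the authors' adjusted p of 0.05 (y axis) in 3 classes of peak strength, the log10 p of the peak over input (x axis), for lncRNA peaks in red and all 19049 peaks in grey. The share falls in both as peaks get weaker, from 69.7% and 78.1% in the strongest class to 0.86% and 5.56% in the weakest.

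Many uncalled peaks share the same few values. A difference of exactly 1.00, 1.58, 2.00, 2.32 or 2.58, the log2 of the whole numbers from 2 to 6, was listed for 306 lncRNA peaks, or 35.6%, against 16.7% of all peaks, and 4 of the 306 were called. The value 1.00 alone was held by 156 lncRNA peaks, of which 155 had the same log10 adjusted p of -0.141. Fold enrichments repeated likewise: 86 lncRNA peaks had 7.05, 57 had 8.23, 54 had 9.40, 42 had 10.6 and 38 had 11.8. For these peaks the fold and the difference take few steps, so they give no fine order. Over all lncRNA peaks, the 244 listed hosts with no called peak had a median of 0.788 FPKM, the 64 with a called peak 2.75 FPKM, and all 14852 listed genes 3.89 FPKM.

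Calls were counted by class of lncRNA, beside 46.2% over all peaks and with no test between classes. Peaks of lincRNAs were called in 82 of 266 cases, 60 positive and 22 negative, and those of processed transcripts in 49 of 159, 34 positive and 15 negative. Much of the lincRNA count rests on Neat1, Malat1 and Xist, with 24, 8 and 7 called of 29, 8 and 13 peaks in turn. Antisense RNAs had 46 of 218 called, 33 positive and 13 negative. TEC genes, loci with transcript evidence still to be tested by experiment, had 24 of 168, 16 positive and 8 negative. The smaller classes had 4 of 23 sense intronic, 2 of 3 sense overlapping and 1 of 22 bidirectional promoter peaks called. Most hosts carried a single peak: 503 had 1, 73 had 2 and 43 had 3 or more. The bidirectional promoter lncRNA 4632427E13Rik had 9 in 6 separate regions, none of them called and most beyond its RefSeq span of 754 bases. Its RNA was at 2.22, 1.9 and 1.99 FPKM in control and 0.0789, 0.0852 and 0.0807 FPKM in cisplatin input. It passed the filter through the control libraries alone, so no p is given. Some peaks were listed in near-duplicate, 45 overlapping another peak of their own host and 21 a peak of another lncRNA, so that the 859 peaks made 826 separate regions, 196 of them with a called peak.

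The biotypes of the table and RefSeq were set side by side. RefSeq held 238 of the hosts by symbol or synonym, with 391 of the peaks, and called 15 of these hosts, with 28 peaks, protein-coding. Cct6a (a subunit of the chaperonin that folds actin and tubulin) and Ifi30 (a lysosomal thiol reductase) are among them. The 4 Cct6a peaks were all called with negative differences, from -3.20 to -1.02, and both Ifi30 peaks with positive ones, 2.96 and 4.62. The lincRNA Gm42418 is a synonym of Rn18s-rs5 in RefSeq, a pseudogene related to 18S ribosomal RNA, the RNA in which ac4C is best known. Its peak, chr17:39847135-39848080 on the plus strand, spans 946 bases and lies at bases 782 to 1727 of the 1849-base gene. It had a fold enrichment of 21.3 and a difference of -2.15, with a log10 adjusted p of -21.7. Its input level was 11.1, 11.1 and 9.51 FPKM in control and 9.51, 18.1 and 9.68 FPKM in cisplatin libraries. Those groups overlap, with 1 cisplatin library high, and the level did not pass the test (limma log2 change 0.16, SE 0.222, adjusted p 0.527).

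Many lncRNA peaks share their bases with a peak of a protein-coding gene. This held for 191 of 859, or 22.2%, and in 159 of them the largest overlap was with a peak on the other strand. Of these 159 pairs, 149 had the same sign of the difference, 44 the same log2 difference, 56 the same fold enrichment and 35 both. Since 75.8% of all peaks had a positive difference, unrelated pairs would often share a sign too. Some of the identical differences are values that many peaks hold, such as 1.00, listed for 1352 of all peaks. The median gap between the paired log2 differences was 0.272, with the identical pairs included. Where both peaks overlapped over at least 90% of their bases, 24 of 39 pairs had the identical difference. The labels call the libraries strand-specific, and no source used here gives the strand setting of counting or peak calling, so the reads of such a pair cannot be told apart in this table. All RefSeq start windows lay on the strand of the peak for 192 of 194 hosts that have one.

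**Figure D3:**
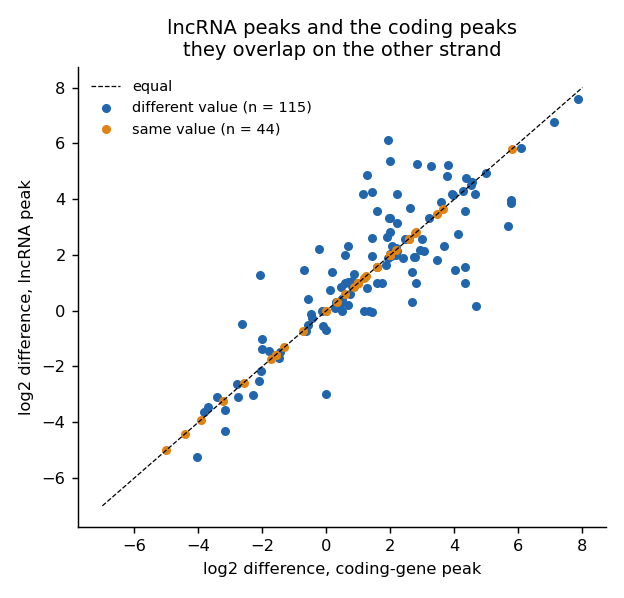
Deposited log2 difference of each lncRNA peak (y axis) against that of the protein-coding peak it overlaps most on the other strand (x axis), for 159 pairs. The dashed line marks equal values, and 44 pairs in orange have the same value. Of the 115 in blue many lie near the line and others far off it, such as Gm2366 at 0.17 and Fat1 at 4.68.

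The pairs include some of the lncRNA peaks with large differences. The antisense RNA Gm15492 had 7.58, the highest of all called lncRNA peaks, at chr6:113320443-113320673 on the minus strand, and the overlapping peak of Brpf1, a subunit of a histone acetyltransferase complex, had 7.85. The TEC gene Gm43808 had 6.78 and Tmem214 7.11. Gm16279 had 5.83 and Mrps18b, a mitochondrial ribosomal protein gene, 6.09. Prss23os, antisense to the serine protease gene Prss23, had 1.97 over 501 bases and Prss23 2.03. AC126804.1 and Bace1, the beta-secretase gene, both had -4.42. The match is not general: CT030161.3 had 6.13 and the Actn1 peak it touches over 35 bases 1.93.

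Outside the span of every RefSeq protein-coding gene, and overlapping no coding peak, lay 317 lncRNA peaks, or 36.9%. Of these, 83 were called, or 26.2%, 56 positive and 27 negative. A few hosts weigh on that share. Neat1, with 24 of 29 peaks called, and Malat1, with all 8 called, lie wholly in this set. So do all but 1 of the 13 Xist peaks, of which 7 were called in all. The 351 peaks within a coding span but on no coding peak were called in 14.8% of cases.

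Neat1, the scaffold of nuclear paraspeckles, carried more peaks than any other lncRNA: 29, in 26 separate regions and adding up to 15084 bases, within its RefSeq span of 20773 bases. Of these 24 were called, 22 positive and 2 negative. Differences ranged from -2.70 to 5.49 with a median of 1.31, so that peaks of opposite sign lay in 1 transcript. The highest difference, 5.49, was near its far end at chr19:5825577-5825817 on the minus strand, and the next peak, chr19:5825907-5826806, had -1.18. The highest fold enrichment, 83.5, was at chr19:5832051-5832471, with a difference of 1.52. The overlapping peaks of 1874 and 2039 bases at its start had 1.19 and 1.24, with log10 adjusted p of -196 and -232.

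Neat1 RNA was at 57.8, 56.4 and 57.3 FPKM in control and 162, 157 and 156 FPKM in cisplatin input. The groups lay far apart, with every cisplatin library above every control one. The change was 1.45 on the log2(FPKM + 1) scale (SE 0.030, limma adjusted p 7.14e-08). In bulk RNA such a change can come from the level per cell or from the share of cells that express the gene, which cannot be told apart.

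Malat1, an abundant RNA of nuclear speckles, had 8 peaks, all called, with small differences: 6 were negative and 2 positive, between -1.13 and 1.01. Its folds were also small, with a median of 2.25, and the highest, 12.5, lay at the far end of the transcript at chr19:5795779-5797464. Overlapping peaks over its start had -0.21 and 0.29, opposite in sign and both past the threshold. The negative difference of -1.13 at chr19:5800964-5801623 and that of -0.46 at chr19:5796020-5797997 both sit at the lowest log10 adjusted p of the table, -434, and have no order between them. Malat1 RNA was at 2860, 2810 and 2830 FPKM in control and 3980, 3820 and 4100 FPKM in cisplatin input. The groups did not overlap, and the log2 change was 0.48 (SE 0.0474, limma adjusted p 4.64e-05). It lost its call with quantile normalization, at 0.09 with an adjusted p of 0.0825, where its alternatives ranged from 1.32e-07 to that value.

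Xist, the RNA that coats and silences the inactive X chromosome, had 13 peaks in 11 regions, with 4 called positive and 3 negative. The positive difference of 5.34 at chrX:103469612-103470899 on the minus strand had a log10 adjusted p of -64.9, and a second positive peak at chrX:103463262-103463531 had 3.54. The negative ones included -3.25 at chrX:103460895-103461105, near the end of the transcript. Toward its start, called Xist peaks had 0.86 and 1.36, at places where Tsix, its antisense partner, was listed with overlapping peaks of 0.30 and 1.26 on the plus strand. The peak at 0.86 also overlapped a peak of Gm26992, listed as protein-coding, on the plus strand. Xist RNA was at 31.1, 31.5 and 31.5 FPKM in control and 20.4, 18.5 and 20.8 FPKM in cisplatin input. It fell in every cisplatin library against every control, with a log2 change of -0.63 (SE 0.0482, limma adjusted p 1.18e-05). Tsix was not listed in the input table.

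Kcnq1ot1, the imprinted RNA that silences genes around Kcnq1, had 14 peaks spread over its 83437-base span. Only 1 was called, with a difference of 6.17 at chr7:143280684-143280954 on the minus strand. The other 13 lay between -2.74 and 3.17, and 5 of the 14 had exactly 1.58. Its RNA was at 2.36, 2.32 and 2.35 FPKM in control and 1.91, 1.82 and 2.05 FPKM in cisplatin input. The groups were close without overlapping, and the log2 change was -0.19 (SE 0.0578, limma adjusted p 0.0162). With quantile normalization it was -0.09 with an adjusted p of 0.192, the highest of its alternatives, which began at 1.91e-05.

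**Figure D4:**
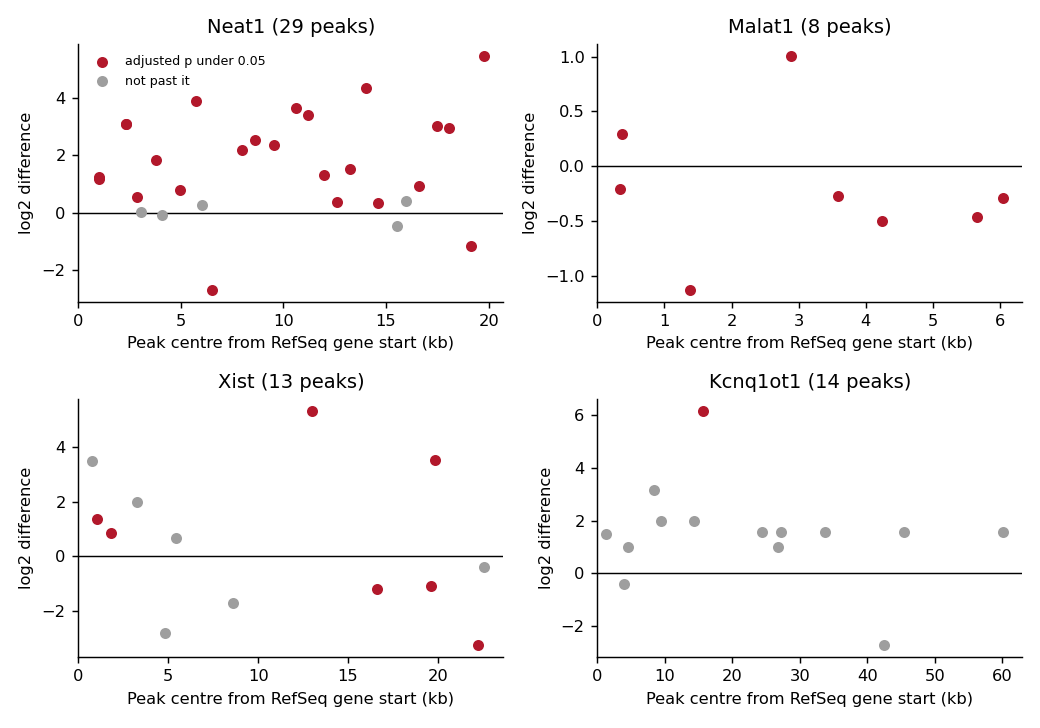
Deposited log2 difference (y axis) of each peak of Neat1, Malat1, Xist and Kcnq1ot1 by the distance of its centre from the RefSeq start of the gene in kb (x axis), red where past the authors' adjusted p of 0.05 and grey otherwise. Neat1 peaks lie mainly above 0 along the whole gene, Malat1 peaks within about 1 of 0, Xist peaks on both sides, and Kcnq1ot1 has 1 red point at 6.17.

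Of the list of 20 nuclear, X-linked and imprinted lncRNAs, 10 had peaks, 76 in all, with 31 called positive and 12 negative. Over all peaks the shares were 36.5% positive and 9.62% negative. The other members of the list with peaks were Firre, Tug1, Ftx, Miat, Tsix and Gm42418. Firre, an X-linked RNA with a role in nuclear architecture, had 4 peaks across spliced exons, 1 of them called at 3.98. Its RNA was at 4.21, 4.19 and 4.64 FPKM in control and 3.43, 3.07 and 2.96 FPKM in cisplatin input, lower in each (log2 change -0.37, SE 0.0677, limma adjusted p 0.00158). None of the 3 Tug1 peaks, the 1 Ftx peak or the 1 Miat peak was called by the authors. In input RNA 10 of the list passed the filter, with 4 higher and 4 lower, where 81.3% of all tested genes were called, 40.1% higher and 41.1% lower. The median log2 change was 0.24, against -0.003 over all tested genes. Among the 4 higher is Nespas, which passed through the cisplatin libraries alone, so that its direction was fixed.

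The hosts of snoRNAs carried 22 peaks in 10 of the 24 genes listed. Over all peaks 36.5% were called positive and 9.62% negative, and of these 22 peaks 8 were called positive and 1 negative. Zfas1, which holds snoRNAs in its introns, had the negative one, and it is the lowest difference of any called lncRNA peak: -8.37 at chr2:167064458-167064637 on the plus strand, with a fold of 40 and a log10 adjusted p of -33.6. A second Zfas1 peak upstream, chr2:167063621-167063980, was called at 3.77. The last, chr2:167065145-167065324, had -1.10 and overlaps the snoRNA Snord12 over 32 bases. Zfas1 RNA was at 2.54, 2.59 and 2.33 FPKM in control and 7.74, 6.21 and 7.32 FPKM in cisplatin input. It rose in all 3 libraries, with a log2 change of 1.21 (SE 0.0827, limma adjusted p 6.72e-06).

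Gas5, a growth arrest transcript that hosts many snoRNAs, had 3 peaks, all called positive, at 2.27, 1.29 and 3.27. Each overlaps at least 1 snoRNA gene in RefSeq. Gas5 RNA was at 19.4, 17.7 and 18.5 FPKM in control and 17.5, 15 and 20 FPKM in cisplatin input. The groups overlapped and the change did not pass the test (log2 change -0.08, SE 0.0941, limma adjusted p 0.431), and its sign turned to 0.02 without cisplatin replicate 2, the lowest library.

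Snhg1 had 1 of 3 peaks called, at 1.61 over a stretch holding 2 snoRNA genes, and its peak over Snord22 had -0.10. Snhg1 RNA was at 24.8, 25.8 and 25.5 FPKM in control and 61.3, 56.5 and 75 FPKM in cisplatin input, a log2 change of 1.30 (SE 0.0951, limma adjusted p 9.70e-06). Snhg12 held the called peak at its start shown above, with a difference of 4.51 and a fold of 21.2. Its RNA was at 2.42, 2.90 and 2.53 FPKM in control and 11.0, 10.1 and 11.3 FPKM in cisplatin input, a log2 change of 1.70 (SE 0.0707, limma adjusted p 6.97e-07). Both RNAs were thus higher in every cisplatin library. Snhg15 had the largest log2 change of the list's hosts that hold a peak and passed the filter, from 1.73, 1.93 and 2.18 FPKM to 15.2, 12.1 and 14.9 FPKM (log2 change 2.36, SE 0.0979, limma adjusted p 7.01e-07), and its peak, at 1.77, was not called.

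Snhg3 went the other way. It was at 4.76, 3.99 and 4.78 FPKM in control and 0.125, 0.0664 and 0.414 FPKM in cisplatin input, a log2 change of -2.20, while its peak was called at 2.20. It passed the filter through the control libraries alone, so no p is given. That peak overlaps Snora73a, and a peak of Gm17300 is listed on the other strand over the same place, at 0.50 and not called. Snhg5 had a called peak at 3.84 and an uncalled one with a fold of 45.8; its RNA did not pass the test (log2 change 0.10, limma adjusted p 0.073), nor did Snhg17 (0.10, 0.158). Snhg5 passed without cisplatin replicate 2, at 0.14 with an adjusted p of 0.0198, where its alternatives ranged up to 0.85. Snhg17 passed without cisplatin replicate 3, at 0.14 with 0.0455, and with quantile normalization, at 0.16 with 0.0344, where they ranged up to 0.782. Dancr was listed at 0 in every control library and reached 1.14, 1.02 and 0.696 FPKM in cisplatin input, and its 4 uncalled peaks are 2 pairs shifted by 1 base. Over the list, 14 genes passed the filter, 8 higher and 3 lower after cisplatin, with a median log2 change of 1.07. Of all tested genes 81.3% were called, 40.1% higher and 41.1% lower. These list counts include Snhg3 and Snhg20, which passed through 1 group alone, so that their direction was fixed.

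**Figure D5:**
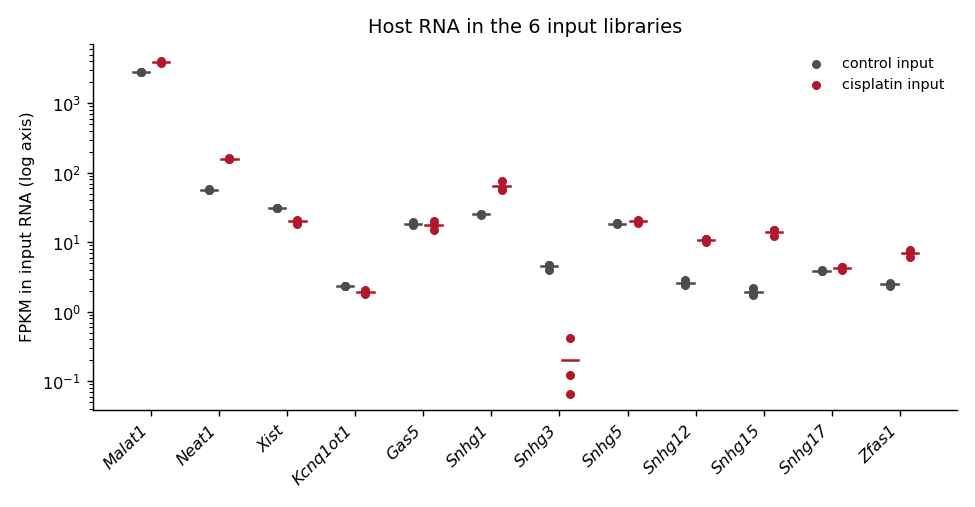
FPKM of 12 lncRNA peak hosts in the 3 control (grey) and 3 cisplatin (red) input libraries; each point is a library, each bar the group mean, and the y axis is logarithmic. Neat1, Snhg1, Snhg12, Snhg15 and Zfas1 are higher in all cisplatin libraries, Snhg3 and Xist lower, and the groups of Gas5 overlap.

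Of 12 lncRNAs known in the p53 and DNA damage response 5 had peaks, 37 in all, with 25 called positive and 2 negative. Over all peaks the shares were 36.5% positive and 9.62% negative. Of the 37 peaks 29 belong to Neat1 and 3 to Gas5. The rest were Tug1, Mir22hg and Ptprv, with no called peak. Mir22hg RNA was at 1.31, 1.09 and 1.13 FPKM in control and 2.37, 2.57 and 2.40 FPKM in cisplatin input (log2 change 0.67, SE 0.0648, limma adjusted p 4.52e-05). Ptprv, a p53-induced transcript that RefSeq calls a transcribed pseudogene, was at 0.982, 0.994 and 0.959 FPKM in control and 1.87, 1.91 and 1.53 FPKM in cisplatin input (log2 change 0.48); it passed the filter through the latter alone, so no p is given. Both were higher in each cisplatin library. Of the 7 genes of this list that passed the filter, 4 were higher and 1 lower, with a median log2 change of 0.33. Over all tested genes 81.3% were called, 40.1% higher and 41.1% lower. Ptprv is among the 4 higher, and the filter fixed its direction.

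Of a list of 17 genes drawn up for miRNA hosts, Mir22hg and Mirt1 had peaks. Mirt1, a transcript first linked to myocardial infarction, is not known as a miRNA host. It had 6, of which 1 was called, at 3.32, and its RNA rose from 3.53, 3.40 and 3.40 FPKM to 8.88, 9 and 8.44 FPKM (log2 change 1.14, SE 0.0495, limma adjusted p 8.44e-07). The list's 3 genes that passed the filter, Mir22hg, Mir17hg and Mirt1, were higher, with a median log2 change of 0.70, where 40.1% of all tested genes were higher. Of 29 symbols listed for lncRNAs known from cancer and development, of which 2 genes hold 2 each, 3 had peaks. 1700020I14Rik, a synonym of Oip5os1 and known as Cyrano, had 6, with 5.73 and 5.91 called positive and -3.87 called negative between them. Only the peak at 5.73 lies within the RefSeq span of Oip5os1, and the others lie past its end at chr2:119600746. The RNA of 1700020I14Rik was at 6.35, 6.57 and 6.04 FPKM in control and 10.7, 10.7 and 12.2 FPKM in cisplatin input (log2 change 0.74, SE 0.0619, limma adjusted p 2.02e-05). 2900097C17Rik, named Norad in RefSeq, binds Pumilio proteins and guards genome stability; 1 of its 2 peaks was called, at 2.86. Norad RNA was at 30.9, 29.9 and 30.3 FPKM in control and 22.7, 22.6 and 23.3 FPKM in cisplatin input (log2 change -0.39, SE 0.0322, limma adjusted p 1.73e-05). Foxd2os had 1 uncalled peak. Of the 8 genes of the list that passed the filter 2 were higher and 4 lower, with a median log2 change of -0.29. Over all tested genes 81.3% were called, 40.1% higher and 41.1% lower.

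Large differences of either sign were spread over many hosts. After Gm15492 and Gm43808 came C230096K16Rik with 6.27, the Kcnq1ot1 peak with 6.17, CT030161.3 with 6.13, Gm45872 with 5.95, Gm37524 with 5.91 and 1700020I14Rik with 5.91. The Gm45872 peak overlaps a peak of Smarca5, a chromatin remodeller, on its own strand. After Zfas1, the negative ones were Gm43775 with -7.80, Gm44709 with -6.18, Gm44949 with -5.79, C79130 with -5.64, AV039307 with -5.25, Gm44066 with -4.88 and Gm11149 with -4.70. AV039307 overlaps the peak of Ubr1, a ubiquitin ligase gene, which had -4.03.

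High enrichment and a called difference did not go together in every case. Gm43775, a TEC gene, had the highest fold of the set, 89.3, at chr5:66071019-66071228 on the minus strand, with the called -7.80. Its RNA was listed at 0.809, 0.682 and 0.435 FPKM in control and at 0.0364, 0 and 0 FPKM in cisplatin input. After Neat1, the folds of Gm38220 (79.9), A430046D13Rik (77.6), Rab10os (74.1), Gm37309 (70.5) and Gm37893 (64.3) belonged to peaks that were not called, although Gm38220 and Gm37893 had differences of -6.09 and -6.28. Gm45828, with 63.5, was called at 5.39.

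The RNA of the hosts was then compared in input. Of 619 hosts 308 were listed in the input table, with 492 of the peaks, and 189 passed the filter of at least 1 FPKM in 3 or more libraries. Of these 94 were higher and 66 lower after cisplatin, or 84.7% called, against 81.3% of all 11449 genes tested, of which 40.1% were higher and 41.1% lower. The groups did not overlap in 162 of 189, or 85.7%, against 84.2% of all genes tested. Since a host can pass the filter through 1 group alone, these counts are a description: 43 hosts passed only through the control and 40 only through the cisplatin libraries. Among the 89 hosts at or above 1 FPKM in each of the 6 libraries, 50 were higher and 19 lower, against 3701 and 3411 of 9103 genes. In 31 hosts a group held at most 3 recovered fragments in all, while each library of the other group reached 1 FPKM. Of these hosts, 17 were near 0 in control and 14 near 0 in cisplatin.

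By class, 27 lincRNA hosts were higher and 14 lower of 51 tested, 24 and 10 of 42 processed transcripts, 16 and 10 of 28 antisense RNAs, and 20 and 27 of 53 TEC genes. The median log2 change was 0.27, 0.36, 0.59 and -0.23 in turn. TEC hosts were the only one of these 4 classes with more lower than higher. The classes were not compared, since these counts include hosts whose direction was fixed by passing the filter through 1 group alone. Of all tested genes 40.1% were higher and 41.1% lower. Of lncRNA genes without a peak, 551 were tested and 245 were higher and 271 lower.

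The hosts that rose most were Gm20536, Frmd8os, 2900052L18Rik, Gm13205, Gm38223, Gm44275 and Gm27240, beside Snhg15. Gm20536 was listed at 0.109, 0 and 0 FPKM in control and at 10.3, 12.7 and 7.59 FPKM in cisplatin input (log2 change 3.41). Frmd8os, Gm13205 and Gm27240 were listed at 0 in every control library, and Frmd8os reached 4.51, 7.01 and 7.56 FPKM after cisplatin. Gm44275 was present in both groups, at 1.83, 1.49 and 1.54 FPKM in control and 12.9, 12.9 and 13.0 FPKM in cisplatin input (log2 change 2.41, SE 0.0626, limma adjusted p 1.24e-07). None of these 7 hosts had a called peak. All but Gm44275 passed the filter through the cisplatin libraries alone and so had to differ.

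Those that fell most, beside Snhg3, were AC122840.4, Gm15265, Gm40309, AC153143.1, Gm29152, C430049B03Rik and Gm38077. AC122840.4 was at 7.30, 6.80 and 9.42 FPKM in control and 0.064, 0.0255 and 0.106 FPKM in cisplatin input (log2 change -3.04). Gm40309 kept some RNA in both groups, 11.2, 9.12 and 10.3 FPKM against 1.24, 1.10 and 0.802 FPKM (log2 change -2.45). The other 6 passed the filter through the control libraries alone. Of these 7 only Gm15265, antisense to the lipid kinase gene Pi4kb, had a called peak, at 4.75 with a fold of 58.8, and the overlapping Pi4kb peak had 4.35.

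Peak difference and host RNA were set side by side for the 110 called peaks with a tested host. Of 76 positive peaks 48 had a host that was higher after cisplatin, 18 a host that was lower and 10 a host that did not pass. Of 34 negative peaks the counts were 21, 8 and 5. Hosts that rose thus made up 63.2% of positive and 61.8% of negative peaks, and in protein-coding genes 46.3% and 41.5%. These shares take in hosts that passed the filter through the control or the cisplatin libraries alone, such as Gm15492 and AV039307. The direction of such hosts was fixed by the filter. The shares are therefore a description, and lncRNA and protein-coding genes were not compared. The counts rest on few genes: Neat1 gave 22 of the 48, Malat1 6 and Cct6a 4 of the 21, and without Neat1, Malat1, Xist and Cct6a the counts of peaks with hosts higher and lower were 24 and 14 for positive and 9 and 5 for negative differences.

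The deposited sign and the change of the host RNA differed in some genes. Since the direction of the deposited difference is not stated, these are the pairs that would run the same way if its sign were turned. Gm15492 had the highest positive difference, 7.58, and its RNA was at 2.48, 2.96 and 2.29 FPKM in control and listed at 0 in all 3 cisplatin libraries. Gm37524 had 5.91 with RNA at 9.92, 11.4 and 10.5 FPKM in control and 4.89, 3.31 and 3.64 FPKM in cisplatin input. The Kcnq1ot1 and Xist peaks at 6.17 and 5.34 were likewise positive in hosts that fell. In the other direction were Zfas1, AV039307, Gm44066 and AC126804.1, negative in hosts that rose. Gm44066 was at 0.512, 0.589 and 0.267 FPKM in control and 7.14, 3.53 and 3.15 FPKM in cisplatin input (log2 change 1.88). It passed the filter through the cisplatin libraries alone, as AV039307 did, and Gm15492 through the control ones, so no p is given for them.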

How the data were processed

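The 12 libraries were grouped by the treatment and fraction in the labels, 3 in each of 4 groups. Per the submitters' processing notes, fastp, FastQC, HISAT2 and HOMER were used with mm10. No source used here names the peak caller, the gene annotation or the tests. The deposited table of peaks gives each peak's fold enrichment of IP over input (a linear ratio), its p-value, a log2 difference between treatments and the log10 p and adjusted p of peak and difference. The authors' deposited log10 values were treated as a score, since they reach far below a common p range. The authors' FPKM values of 6 input libraries, their log2 changes and p-values come in a second deposited table. Peak starts were moved to counting from 1, and coordinates are the outer ends of a peak. Overlap means at least 1 shared base of exonic blocks.

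Genes with at least 1 FPKM in 3 libraries were fitted with limma 3.58.1 in R 4.3.3 (lmFit, eBayes with trend) on log2(FPKM + 1), with Benjamini-Hochberg adjustment over all genes at 0.05. Fold changes on this scale understate the change of low genes. The fit was tested on simulated data. Fragments were recovered for 14851 of 14852 genes, whose values were whole multiples within a tolerance of 0.0001. Intervals were not computed for peaks, which have no value per library. Members, gene lists and tests were chosen with earlier results of these data known. Named hosts are those on a list, the 8 largest changes each way with a higher mean of at least 2 FPKM, the 5 highest levels and the 5 with most peaks; named peaks are the 8 largest differences each way, the 8 highest folds and up to 4 each way against the host's change. The largest pairs on the other strand were chosen after their values were seen. Python 3.11.15 with pandas 2.3.3 was used for the tables.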

Additional observations from a re-analysis of the deposited data

How the results depend on the processing

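Of 47 named hosts tested, 40 kept their direction and their side of the threshold in all alternatives run, as did 668 of 681 values. Leaving out 1 library, Gas5 ranged from -0.18 to 0.02 and Gm42418 from -0.12 to 0.31, each changing sign without cisplatin replicate 2; neither passed in the reported fit. C230096K16Rik, Malat1 and Kcnq1ot1 lost their call in some alternatives, and Snhg5 and Snhg17 gained one. The cause was not tested.

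The counts of hosts, 94 higher and 66 lower, were 30 and 10 with a filter at 5 FPKM, where 49 hosts were tested, and the lower count was 117 with no filter, where 308 were. Leaving out 1 input library in turn gave 88 to 96 higher and 64 to 68 lower. With the filter taken over the 5 remaining libraries, chosen after seeing the data, the ranges were 51 to 91 and 20 to 68 (higher 51, 56 and 53 without cisplatin replicates 1 to 3, lower 22, 20 and 21 without the control ones), since a host present in 1 group alone then cannot pass. Replicate numbers did not pair the samples (correlations 0.097, -0.116 and 0.043), and a replicate block gave 94 and 67.

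Of peaks, 149 positive and 59 negative, lincRNAs alone held 60 and 22, and hosts above the FPKM filter 76 and 34. An adjusted p of 0.001 left 38 negative. Added after seeing the data, peaks overlapping no coding peak held 91 positive, and those outside coding spans and peaks 56 and 27. Leaving out Neat1, Malat1 and Xist, also added later, gave 121 positive and 48 negative. A comparison leaving out RefSeq exons of coding genes was not run, as exons were not at hand. With a host log2 change of at least 1 in size, the joint counts were 29 and 9 for positive and 6 and 3 for negative differences. These joint counts also include hosts whose direction was fixed by the filter. Weak peaks are 40.6% of the lncRNA peaks, and the depth behind each peak is unknown.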
